A study of Homo sapiens with 12 samples.

Results

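The 10 genes described here are the 5 NF-kappaB subunit genes NFKB1, NFKB2, RELA, RELB and REL, and 5 genes of the feedback arm, NFKBIA, NFKBIE, TNFAIP3, TNIP1 and BIRC3. They were chosen by Ensembl identifier, by no rule on measured values but with earlier results of these data known. All 10 were found among the 60708 features of the deposited count table. RNA that came down with an antibody was sequenced from HK2, an established epithelial line of the human kidney, in 12 libraries. All cells, controls included, had been transfected with 10 µg of plasmid carrying human Arid5a with a FLAG tag (FLAG-hArid5a), so every group models cells that carry added Arid5a. The 4 groups of 3 libraries were mouse IgG1 precipitates from cells kept in medium, IgG1 precipitates from cells given IL-17 at 200 ng/mL for 3 h, and FLAG precipitates from cells kept in medium or given IL-17 in the same way. Cells without the plasmid and total RNA before precipitation are not analysed here, so a level below is a level in a precipitate and not in the cell.

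NF-kappaB factors are dimers of 5 related proteins that share a DNA-binding domain. In resting cells inhibitor proteins, among them the products of NFKBIA and NFKBIE, hold the dimers in the cytoplasm. Cytokine receptors activate a kinase complex that marks these inhibitors for destruction, and the freed dimers then switch on genes that include their own inhibitors. IL-17 reaches this pathway in epithelial cells through the adaptor Act1 and TRAF proteins. It is known for lengthening the life of inflammatory mRNAs as well as for inducing them. Arid5a is an RNA-binding protein known to bind and stabilise such mRNAs in their 3' ends, and an antibody against its tag recovers the transcripts it holds together with background RNA.

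NF-kappaB dimers bind a short DNA motif, the kappaB site, which was looked for in the promoters of the 10 genes. The reference table of promoters (RefSeq, GRCh38.p14; 250 bases before to 50 after each annotated start, 35116 windows) held 8 of the 10 genes; RELB and NFKBIE were not in it. The kappaB consensus, searched on both strands with overlapping matches merged, was found in a window of 7 of these 8 genes and in 8 of their 13 windows. Over all windows in the table the share with a match was 5.91%, and over gene symbols, which can have several windows, it was 7.09%. RELA had 2 windows with no match, which says only that these letters are not in those windows. The stretches below show, for each gene, the first window with a match, from 20 bases before the first to 20 bases after the last match. They are printed 5' to 3' on the gene's strand with the matches in capitals. The matches were not used to choose the genes, but the feedback genes were chosen as part of this pathway. Matches in their promoters are thus no independent trait. A match is a description and not a measured binding site.
NFKB1 (chr4:102501290-102501339, plus strand): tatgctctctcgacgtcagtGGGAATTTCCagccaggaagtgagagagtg
NFKB2 (chr10:102394451-102394529, plus strand): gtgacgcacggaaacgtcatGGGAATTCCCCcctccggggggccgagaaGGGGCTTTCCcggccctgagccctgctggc
REL (chr2:60881507-60881557, plus strand): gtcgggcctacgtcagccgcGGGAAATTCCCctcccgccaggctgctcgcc
NFKBIA (chr14:35404801-35404850, minus strand): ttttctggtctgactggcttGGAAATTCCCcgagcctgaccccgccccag
TNFAIP3 (chr6:137867172-137867233, plus strand): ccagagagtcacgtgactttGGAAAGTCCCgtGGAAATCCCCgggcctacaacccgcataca
TNIP1 (chr5:151081047-151081096, minus strand): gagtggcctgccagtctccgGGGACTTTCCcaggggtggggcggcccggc
BIRC3 (chr11:102317265-102317378, plus strand): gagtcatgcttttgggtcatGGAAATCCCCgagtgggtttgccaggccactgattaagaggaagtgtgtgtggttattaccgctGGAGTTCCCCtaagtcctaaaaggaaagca

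Distances are to the annotated start of the window shown, and a gene can have several such starts. The stretches of NFKB2, TNFAIP3 and TNIP1 lie inside the gene positions given below, so theirs are starts within the gene. Within these windows the NFKBIA match began 81 bases before the start and the TNIP1 match 42 bases before it. TNFAIP3 had a pair of matches that began 67 and 55 bases before the start, and those of BIRC3 began 199 and 135 bases before it. The REL and NFKB1 matches began 47 and 49 bases before their starts, and those of NFKB2 107 and 78 bases before.

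The libraries differed in depth and in content, and this bears on every value below. Total estimated counts ranged from 746911 in IgG medium replicate 1 to 7563477 among medium libraries, and from 5365495 to 17723136 among IL-17 libraries, so that depth goes with the treatment. In an earlier analysis of these data 4 libraries stood apart in content or depth: IgG IL-17 replicate 1, IgG medium replicates 1 and 2, and FLAG medium replicate 1. The 10 genes together took between 0.0135% of counts, in FLAG medium replicate 1, and 0.056%, in IgG medium replicate 3. Levels are given as CPM (counts scaled to library size) after TMM scaling, which corrects library totals for differences in composition, with factors from 0.614 to 1.55. A gene without a count could still stand at up to 6.36 scaled CPM in IgG medium replicate 1, and at up to 0.165 to 0.832 in the others, by a limit of 3 counts that covers counting error only. All 10 genes passed the filter on low counts, as did 24040 features in all. Their mean levels lay between percentile 56.9 of these features, for BIRC3, and percentile 93, for TNIP1. The shares and medians of all features given below are not matched for level, so they include many features with fewer counts than these genes. The labelled cell type could not be checked against marker genes, because the files do not pair identifiers with names beyond these 10 genes. The labels name no separate cultures for the replicates, so the tests measure the spread between these libraries, which may be technical. In such bulk samples fewer cells that express a gene and less RNA per cell cannot be told apart.

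Between genes, levels were compared as TPM, which is scaled for transcript length. Over the 12 libraries the highest median was that of TNIP1, at 7.51 TPM. RELA followed at 4.5, NFKBIA at 3.38, NFKB2 at 2.90 and TNFAIP3 at 2.64 TPM. NFKB1 had a median of 1.62, NFKBIE 1.51 and RELB 0.94 TPM, while BIRC3 at 0.275 and REL at 0.23 TPM were lowest. Most neighbours in this order could not be separated. TNIP1 exceeded RELA in 7 of 12 libraries, RELA exceeded NFKBIA in 6, and BIRC3 exceeded REL in 6. The step from TNFAIP3 to NFKB1 held in 11 libraries, and those from NFKBIE to RELB and from RELB to BIRC3 in 10 each. NFKB2 exceeded TNFAIP3 in only 3 of 12 libraries although its median was higher. The order moved with the group. TNIP1 had the highest median in both IL-17 groups, at 5.13 TPM in IgG and 6.68 in FLAG. In IgG medium RELA was first at 23.8 TPM and TNFAIP3 followed at 12.1, and in FLAG medium TNFAIP3 was first at 19.7 TPM. The place of TNFAIP3 over all libraries thus pools levels between 1.18 and 2.83 TPM with IL-17 and between 1.19 and 30.3 TPM in medium. By library, TNIP1 ranked first in 6, TNFAIP3 in 3, RELA in 2 and NFKBIA in 1.

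**Figure D1:**
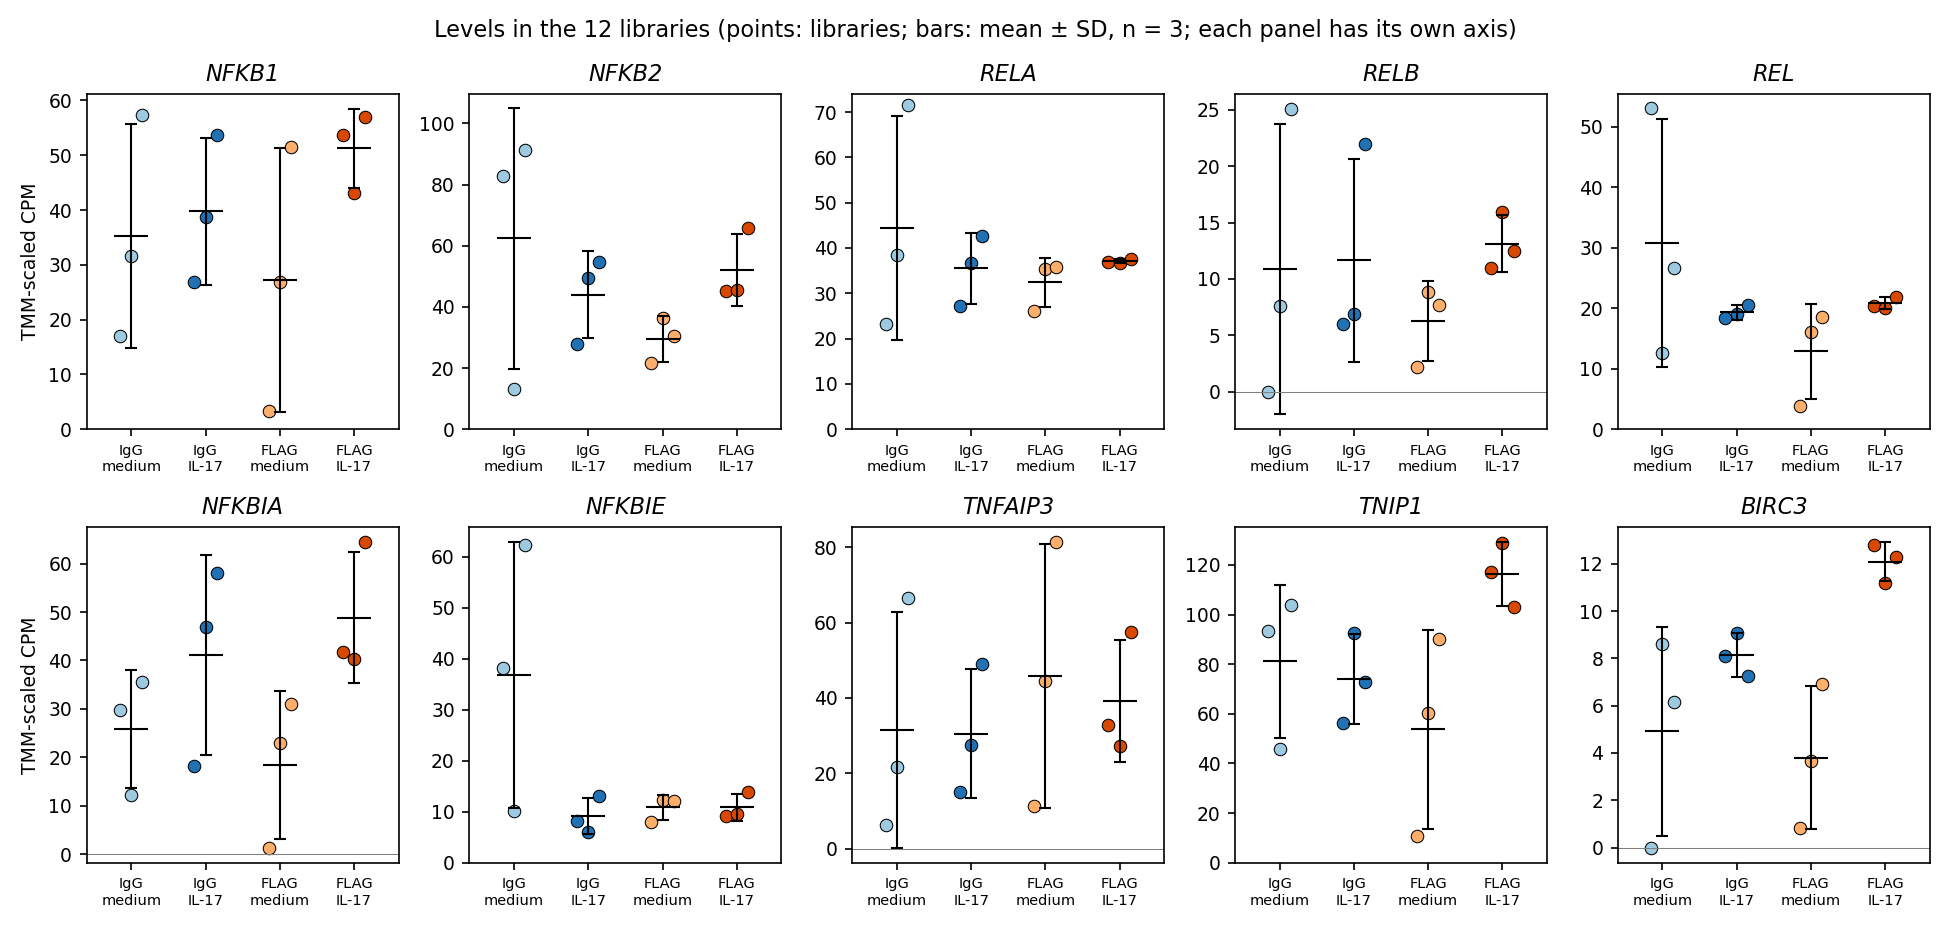
TMM-scaled CPM (vertical axis, linear, a separate range for each gene) of the 10 genes in the 4 groups (horizontal axis); points are libraries and bars are mean ± SD with n = 3. On this scale FLAG IL-17 libraries lie close together for RELA, between 36.6 and 37.5 (23 to 37.8 on CPM with library totals), whereas IgG medium libraries spread widely, for example NFKBIE between 10.2 and 62.3.

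The spread within a group was itself uneven on scaled CPM. In FLAG IL-17 the SD was 1.26% of the mean for RELA, 4.57% for REL and 6.59% for BIRC3, and its highest value was 41.1%, for TNFAIP3. In IgG medium it ran from 37.9% of the mean for TNIP1 to 118% for RELB. The low spread in FLAG IL-17 depended on the scale: on CPM with library totals RELA was 30.5 ± 7.4 (SD, n = 3), REL 17.1 ± 3.73 (SD, n = 3) and BIRC3 10 ± 2.82 (SD, n = 3). The difference in spread between the groups goes with depth, since IgG medium held the shallowest library, and the part that depth has in it was not tested.

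The question of the treatment comparison was what 3 h of IL-17 did to the recovery of these transcripts. None of the 10 genes passed the threshold with edgeR in either antibody. In IgG precipitates edgeR called 0 of the 10 genes (Benjamini-Hochberg adjusted p under 0.05 over all features), where 0.0125% of all features were called. At an unadjusted p under 0.05 there was 1 gene, NFKBIE, where 5.57% of all features were. DESeq2, run without the filter on 48364 features, called 369 of all features and 1 of the 10 genes, again NFKBIE. The limma fits on log2(TPM + 1) or log2(TPM + 0.1) called 0 of the 10. In FLAG precipitates edgeR called 0 of 10, where 0.225% of all features were called, with 0 at an unadjusted p under 0.05 (10.9% of all features) and 0 by DESeq2 and by limma. Over both antibodies, 6 libraries against 6, edgeR called 0 of 10 against 0.395% of all features, with 2 at an unadjusted p under 0.05, NFKBIA and NFKBIE (10.5% of all features). Here too DESeq2 called NFKBIE, among 813 calls over all 48364 features, and limma called none of the 10 with either pseudocount.

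The median of the list differed between the precipitates and moved when single libraries were left out. In FLAG the median log2 fold change of the 10 genes was 0.86, that of all 24040 features was -0.29, and 8 of the 10 genes had an estimate above 0, where 43.7% of all features did. Without FLAG medium replicate 1 the median of the 10 genes was 0.49, and it was 0.50 to 0.57 without any one FLAG IL-17 library or without IgG IL-17 replicate 2 or 3. The IgG libraries are not part of this comparison, but each such fit filtered and scaled the data anew. Without IgG IL-17 replicate 2 or 3 it tested 27718 or 28019 features. Such shifts therefore mix the refit with the values of the library left out. Over the 12 fits that left out a library the median of the 10 genes ran from 0.49 to 0.92, with that of all features from -1.06 to -0.05. On log2(TPM + 1) the median of the 10 genes was -0.54, with 1 of 10 above 0. In IgG the median of the 10 genes was -0.12 against 0.18 for all features, and 3 of 10 were above 0, where 57.2% of all features were. Without IgG medium replicate 3 it was 0.28, with 7 of 10 above 0, and without IgG IL-17 replicate 1 it was 0.15, with 6 of 10; without IgG IL-17 replicate 3 it was -0.52. On log2(TPM + 1) it was -1.07, with 1 of 10 above 0. The median of all features in IgG was 1.67 without IgG medium replicate 2 and 0.01 to 0.24 without any other library. These are descriptions of estimates, none of which passed the test. The typical standard error of the members was 0.67 in IgG and 0.66 in FLAG on the log2 scale. That of all features was larger, at 1.37 in both. The 95% intervals of the 10 genes reached past a doubling or past a halving in each antibody.

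**Figure D2:**
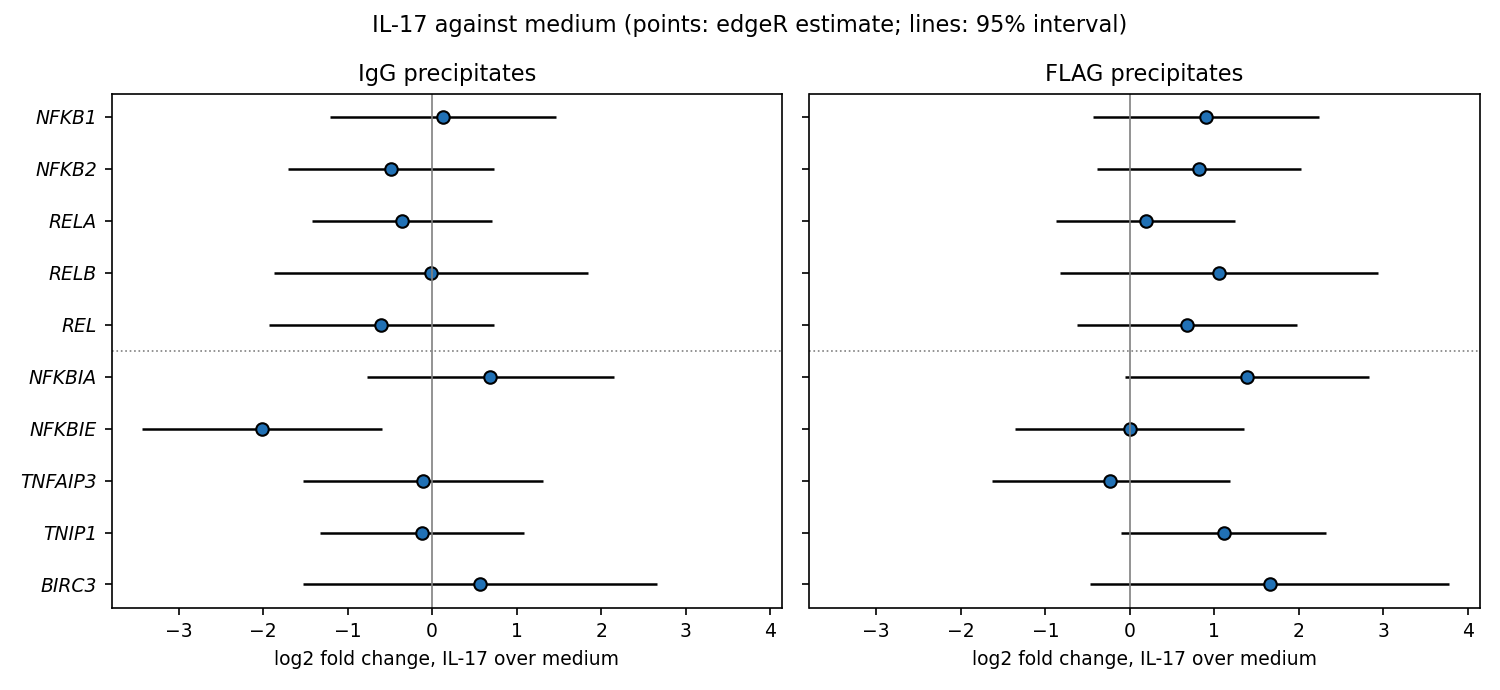
Log2 fold change of IL-17 over medium (horizontal axis) for the 10 genes (vertical axis; subunits above the dotted line, feedback genes below it) in IgG (left) and FLAG (right) precipitates; points are edgeR estimates and lines are 95% intervals. The interval excludes 0 only for NFKBIE in IgG, from -3.43 to -0.59.

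Among the subunits, RELA (ENSG00000173039.19, chr11:65653601-65663857) encodes the main activating subunit of the classical pathway. Its level was 23.3, 38.5 and 71.5 scaled CPM in IgG medium and 27.2, 36.7 and 42.6 in IgG IL-17. In FLAG it was 26.1, 35.3 and 35.8 in medium and 37.0, 36.6 and 37.5 with IL-17. The FLAG groups did not overlap, but they were separated by less than the spread of the medium group, and the estimate was 0.19 ± 0.52 (SE) in FLAG and -0.36 ± 0.52 in IgG.

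NFKB1 (ENSG00000109320.13, chr4:102501359-102617302) and NFKB2 (ENSG00000077150.20, chr10:102394110-102402529) encode precursors that are cut to DNA-binding subunits and that, uncut, also restrain other subunits. NFKB1 stood at 17, 31.6 and 57.4 scaled CPM in IgG medium, 26.8, 38.8 and 53.7 in IgG IL-17, 3.33, 26.9 and 51.6 in FLAG medium, and 53.7, 43.2 and 57.0 in FLAG IL-17. Its groups overlapped in both antibodies, with the lowest value in FLAG medium replicate 1. NFKB2 stood at 82.7, 13.2 and 91.2 in IgG medium, 27.8, 49.6 and 54.6 in IgG IL-17, 21.6, 36.5 and 30.6 in FLAG medium, and 45.1, 45.5 and 65.7 in FLAG IL-17. The FLAG groups of NFKB2 did not overlap, with a log2 fold change of 0.82 ± 0.59 (SE, edgeR adjusted p = 0.524), while IgG medium replicate 2 lay below every other library of NFKB2.

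RELB (ENSG00000104856.14, chr19:45001464-45038192), the activating subunit of the alternative pathway, was sparse. It had a count of 0 in IgG medium replicate 1, 7.58 and 25.1 scaled CPM in the other IgG medium libraries, and 6.02, 6.92 and 22.0 in IgG IL-17. In FLAG it ran from 2.22 to 8.82 in medium and from 11.0 to 15.9 with IL-17, without overlap (log2 fold change 1.05 ± 0.92, SE; edgeR adjusted p = 0.584). REL (ENSG00000162924.15, chr2:60881574-60931612), a subunit best known from lymphocytes, had 53, 12.6 and 26.7 scaled CPM in IgG medium and 18.3 to 20.6 in IgG IL-17. In FLAG, REL stood at 3.88, 16.1 and 18.6 in medium and 20.1 to 21.9 with IL-17, again without overlap, and the estimate was 0.68 ± 0.63 (SE, edgeR adjusted p = 0.606).

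NFKBIA (ENSG00000100906.11, chr14:35401513-35404749) encodes the inhibitor that is destroyed and remade fastest, and is a standard readout of NF-kappaB activity. Its level was 29.7, 12.3 and 35.6 scaled CPM in IgG medium and 18.2, 47.0 and 58.1 in IgG IL-17. In FLAG it was 1.39, 23.0 and 31.0 in medium and 41.8, 40.3 and 64.4 with IL-17. The value of 1.39, in FLAG medium replicate 1, rests on 5 counts. In TPM the same library had the highest NFKBIA value of all 12, at 6.92. All 3 FLAG IL-17 libraries lay above all 3 FLAG medium libraries, while the IgG groups overlapped through IgG IL-17 replicate 1. The log2 fold change was 1.39 ± 0.70 (SE, 95% interval -0.06 to 2.83, edgeR adjusted p = 0.46) in FLAG and 0.69 ± 0.71 (SE, edgeR adjusted p = 1) in IgG. Averaged over both antibodies it was 1.04 ± 0.50 (SE, 95% interval 0.01 to 2.07), a 2.06-fold higher level with IL-17, with an unadjusted edgeR p of 0.0473 and an adjusted p of 0.47. Without the 4 libraries that stood apart this estimate was 0.77, where the median of all features was 0.8. Of IgG medium this fit keeps replicate 3 alone, whose spread is taken from the other groups. On log2(TPM + 1) the sign was the opposite, at -0.54.

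NFKBIE (ENSG00000146232.17, chr6:44258166-44265551), which encodes a second inhibitor of the same family, had the smallest unadjusted p of the 10 genes in this comparison. Its level was 38.2, 10.2 and 62.3 scaled CPM in IgG medium and 8.24, 6.06 and 13 in IgG IL-17. In FLAG it was 8.04, 12.4 and 12.2 in medium and 9.16, 9.58 and 13.9 with IL-17. IgG medium replicates 1 and 3 were thus above every other library, and the remaining 10 libraries lay between 6.06 and 13.9. The value of replicate 1, the shallowest library, rests on 18 counts, and that of replicate 3 on 243. The log2 fold change in IgG was -2.01 ± 0.69 (SE, 95% interval -3.43 to -0.59), with an unadjusted edgeR p of 0.00738 and an adjusted p of 0.754, so it did not pass. DESeq2 gave the same estimate with an adjusted p of 0.0194. Without the 4 libraries that stood apart edgeR gave -2.57, where the median of all features was 2.17. This value rests on IgG medium replicate 3 as the only IgG medium library. Leaving out IgG medium replicate 3 gave -1.34 (edgeR adjusted p = 0.804). In FLAG the estimate was 0.00 ± 0.66 (SE), with an interval of -1.36 to 1.35.

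TNFAIP3 (ENSG00000118503.15, chr6:137866349-137883312) encodes a ubiquitin-editing enzyme that shuts off signalling upstream of the inhibitors, and TNIP1 (ENSG00000145901.16, chr5:151029943-151087685) encodes a protein that binds it and ubiquitin chains. TNFAIP3 stood at 6.36, 21.7 and 66.4 scaled CPM in IgG medium and 15.1, 27.4 and 49.1 in IgG IL-17. In FLAG it stood at 11.4, 44.6 and 81.3 in medium and 32.8, 27.3 and 57.5 with IL-17. The value of 6.36, in IgG medium replicate 1, rests on 3 counts and stands at the limit given above for a gene without a count. All groups overlapped, and the estimates were -0.11 ± 0.69 (SE) in IgG and -0.23 ± 0.68 in FLAG, with 95% intervals of -1.53 to 1.31 and -1.63 to 1.18 that leave room for a doubling either way.

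TNIP1 stood at 93.3, 46.0 and 104 scaled CPM in IgG medium and 56.5, 92.6 and 73.0 in IgG IL-17. In FLAG it stood at 10.8, 60.5 and 90.0 in medium and 117, 129 and 103 with IL-17, without overlap. The log2 fold change of TNIP1 in FLAG was 1.11 ± 0.59 (SE, 95% interval -0.10 to 2.32, edgeR adjusted p = 0.464), against -0.12 ± 0.59 in IgG. BIRC3 (ENSG00000023445.16, chr11:102317484-102339403), a ubiquitin ligase gene induced by NF-kappaB whose product acts on receptor complexes and on the kinase of the alternative pathway, had few counts. It stood at 0, 8.60 and 6.15 scaled CPM in IgG medium and 8.11, 9.08 and 7.24 in IgG IL-17, and at 0.832, 3.67 and 6.90 in FLAG medium and 12.8, 11.2 and 12.3 in FLAG IL-17. The value of 0.832 scaled CPM rests on 3 counts. The BIRC3 estimate in FLAG, 1.66 ± 1.03 (SE, 95% interval -0.47 to 3.78, edgeR adjusted p = 0.486), was the highest of the 10 genes and the least precise.

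On scaled CPM, then, 7 of the 10 genes had every FLAG IL-17 library above every FLAG medium library, namely NFKB2, RELA, RELB, REL, NFKBIA, TNIP1 and BIRC3, where 17.3% of all features did. This count depended on the scale. On CPM with library totals alone, 2 genes were separated upwards, NFKBIA and BIRC3, where 3.29% of all features were, and NFKBIE was separated downwards, where 15.7% were. On TPM, 0 genes were separated upwards, where 0.749% of all features were, and 5 downwards, namely NFKB2, RELA, RELB, NFKBIE and TNFAIP3, where 24.6% of all features were. NFKB2, RELA and RELB therefore appeared on opposite sides in scaled CPM and in TPM. Fewer genes were separated in IgG. On scaled CPM there were 0 upwards and 0 downwards, where 9.69% and 1.93% of all features were. On CPM with library totals NFKBIE alone was separated, downwards (2.03% of all features; 7.21% upwards). On TPM NFKBIE and TNIP1 were separated downwards (3.98%; 2.2% upwards). With 6 libraries against 6, 0 genes were separated on scaled CPM, where 1.1% of all features were upwards and 0.108% downwards, or on CPM with library totals (0.645% and 0.237%). NFKBIE was separated downwards on TPM (0.857% of all features; 0.0915% upwards).

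The turn of sign extended to the averaged estimates. For the IL-17 effect over both antibodies the median log2 difference of the 10 genes was 0.33 with TMM scaling, 0.08 with RLE factors, -0.01 with library totals only and -0.58 on log2(TPM + 1). The median of all tested features moved in the same direction, from -0.07 with TMM to -0.41 with RLE factors and with library totals and -0.34 on log2(TPM + 1). Genes with an estimate above 0 numbered 7, 5, 5 and 1 under these scalings. NFKBIE was below 0 under all 4, and BIRC3 was the gene above 0 on log2(TPM + 1), at 0.13. The scale of TPM differed between the treatments: with all libraries brought to one total count, the median feature had between 13.3 and 26.4 CPM per TPM in IL-17 libraries and between 5.53 and 16.2 CPM per TPM in medium libraries.

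**Figure D3:**
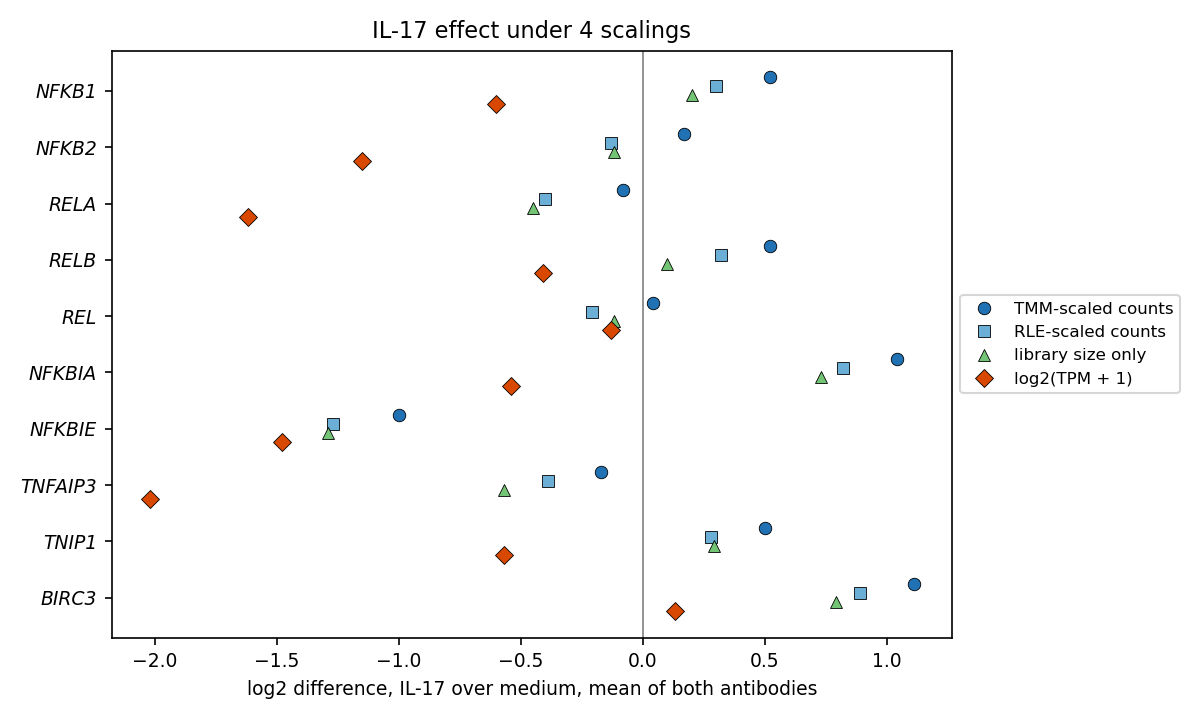
Log2 difference between IL-17 and medium averaged over both antibodies (horizontal axis) for the 10 genes (vertical axis) under 4 scalings, each with its own symbol. TMM-scaled estimates lie furthest to the right for every gene and log2(TPM + 1) estimates furthest to the left except for REL, where RLE lies further left; NFKBIE is below 0 with all 4.

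A view that needs no scaling between libraries is the make-up of the 10 genes' counts within each library. NFKBIA took 11.0%, 10.6% and 14.5% of these counts in FLAG IL-17 and 8.57%, 14.1% and 14.7% in IgG IL-17. It took 1.55%, 8.58% and 8.49% in FLAG medium and 8.64%, 6.09% and 6.53% in IgG medium. The share of 1.55%, in FLAG medium replicate 1, rests on 5 counts. The 6 IL-17 libraries and the 6 medium libraries overlapped only by IgG IL-17 replicate 1, at 8.57%, against medium libraries at 8.58% and 8.64%; the means were 12.2% ± 2.54 (SD, n = 6) and 6.65% ± 2.74 (SD, n = 6).

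NFKBIE showed the opposite order. It took 2.40%, 2.53% and 3.13% in FLAG IL-17 and 3.88%, 1.82% and 3.31% in IgG IL-17, against 8.97%, 4.62% and 3.32% in FLAG medium and 11.1%, 5.03% and 11.4% in IgG medium. The overlap was again small, with 3.88% as the highest IL-17 value and 3.32% as the lowest medium value, and the means were 2.84% ± 0.737 (SD, n = 6) and 7.41% ± 3.53 (SD, n = 6). RELA took 10.4% ± 1.5 (SD, n = 6) with IL-17 and 15.2% ± 7.95 (SD, n = 6) in medium, and TNIP1, the largest share, 26.8% ± 5.53 (SD, n = 6) and 21.4% ± 5.29 (SD, n = 6), with overlap in both genes. These shares were examined after the values were seen, carry no test, and sum to a fixed total, so that a larger share of a gene lowers the others.

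**Figure D4:**
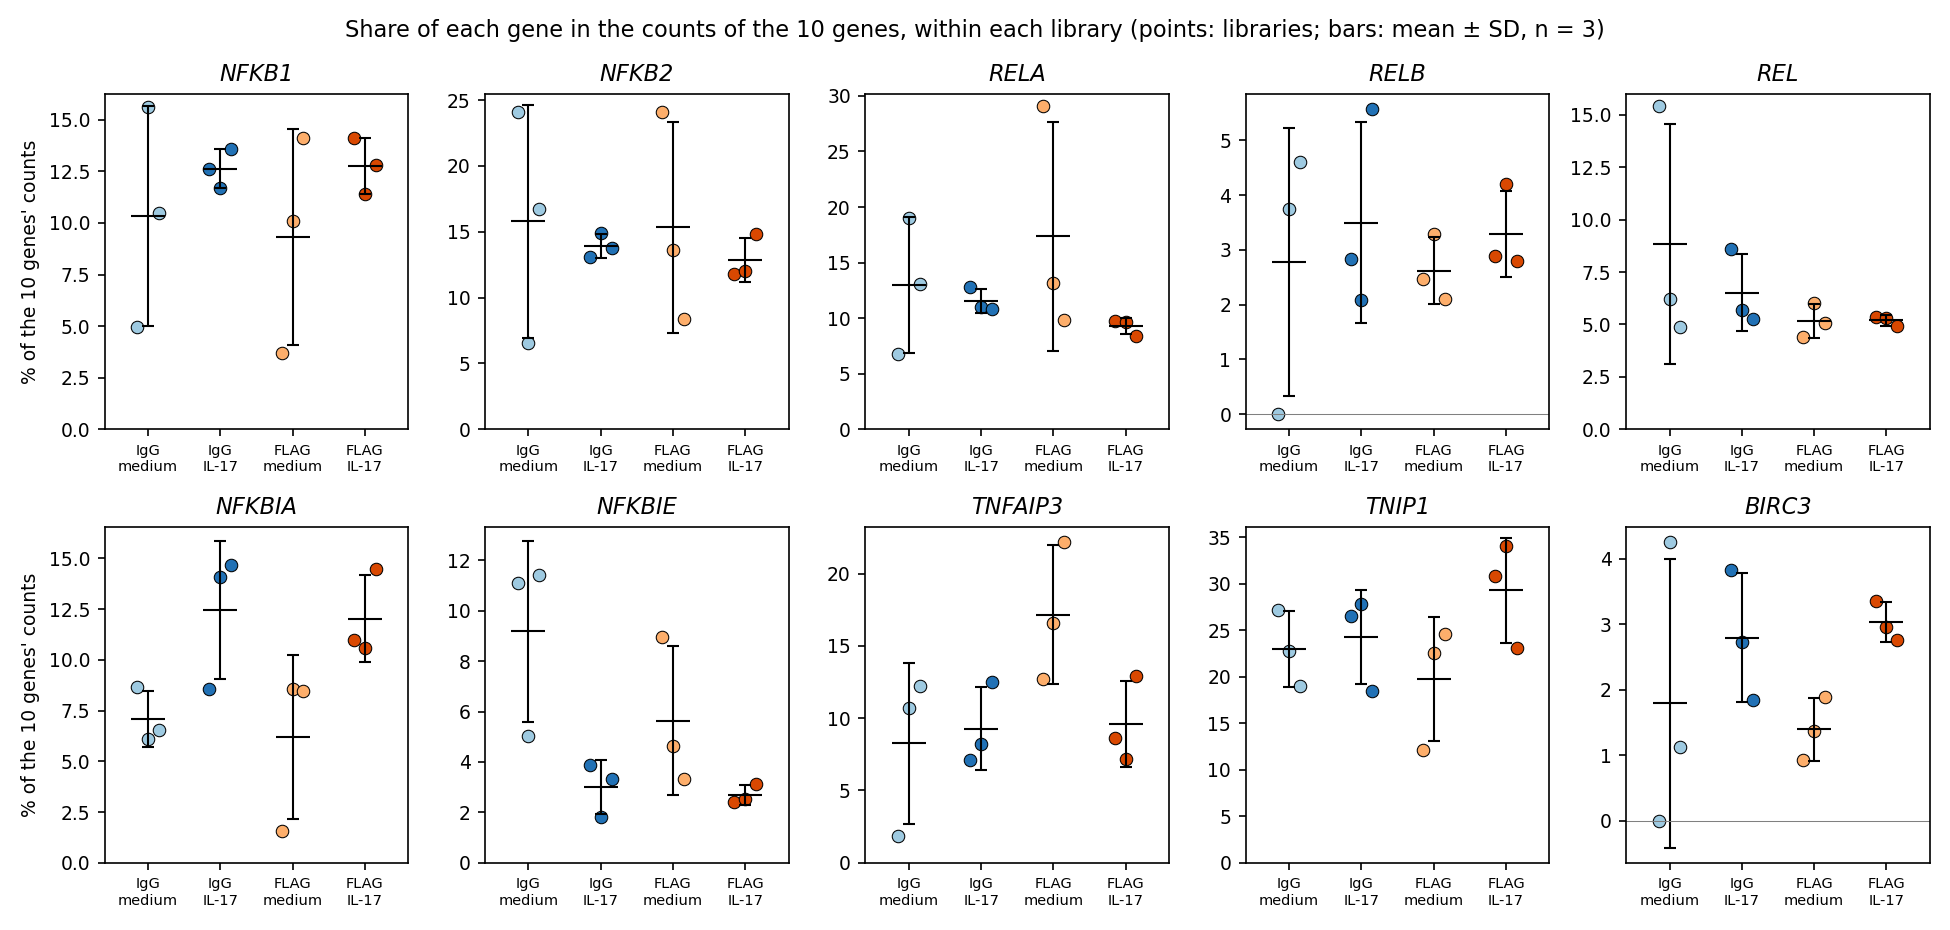
Share of each gene in the summed counts of the 10 genes, in percent (vertical axis, a separate range for each gene), in the 4 groups (horizontal axis); points are libraries and bars are mean ± SD with n = 3. NFKBIA lies between 8.57% and 14.7% in IL-17 libraries and between 1.55% and 8.64% in medium libraries, and NFKBIE between 1.82% and 3.88% and between 3.32% and 11.4%.

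The question of the antibody comparison was whether the transcripts were recovered with FLAG-Arid5a beyond the IgG background. In medium edgeR called 0 of the 10 genes, where 0% of all features were called, with 1 gene at an unadjusted p under 0.05 (6.56% of all features) and 0 by DESeq2 and by limma. That gene was NFKBIE, which was lower in FLAG, at 10.9 ± 2.45 scaled CPM (SD, n = 3) against 36.9 ± 26.1 (SD, n = 3) in IgG. Its log2 fold change was -1.75 ± 0.69 (SE), with an unadjusted edgeR p of 0.0171 and an adjusted p of 0.757, and it was -1.02 without IgG medium replicate 3. The median of the 10 genes was -0.55, against 0.20 for all features, and 1 of 10 was above 0, where 58.4% of all features were. Leaving out IgG medium replicate 3 gave a median of -0.22 for the 10 genes and leaving out FLAG medium replicate 1 gave -0.23, each with 3 of 10 above 0; leaving out FLAG medium replicate 3 gave -1.02. The median of all features was 1.68 when IgG medium replicate 2 was left out and 0.02 when FLAG medium replicate 1 was. With all libraries the gene above 0 was TNFAIP3, with 45.8 ± 35.0 scaled CPM (SD, n = 3) in FLAG and 31.5 ± 31.2 (SD, n = 3) in IgG, an estimate of 0.47 ± 0.69 (SE). The FLAG and IgG libraries in medium overlapped for all 10 genes on every scale. Of all features, 5.07% were separated upwards and 1.11% downwards on scaled CPM, 4.85% and 0.749% on CPM with library totals, and 2.87% and 0.582% on TPM.

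With IL-17 edgeR called 0 of the 10 genes in the antibody comparison, where 0% of all features were called, with 0 at an unadjusted p under 0.05 (2.81% of all features) and 0 by DESeq2 and by limma. All 10 estimates were above 0, where 39.8% of all features were, with a median of 0.25 against -0.33 for all features. This order depended on the scaling: 5 of the 10 estimates were above 0 with RLE factors, 6 with library totals only and 4 on log2(TPM + 1). It also moved when single libraries were left out and the data fitted anew. Without FLAG IL-17 replicate 3 the median was -0.12, with 4 of 10 above 0. Without IgG IL-17 replicate 1 it was 0.06, with 7 of 10. Over the 12 fits that left out a library it ran from -0.12 to 0.34. The estimates ran from 0.06 for RELA to 0.65 for TNIP1, with standard errors of 0.51 to 1. TNIP1 and BIRC3 were the genes whose FLAG IL-17 libraries all lay above the IgG IL-17 libraries on scaled CPM, where 14.6% of all features did. TNIP1 averaged 116 ± 13.4 scaled CPM (SD, n = 3) in FLAG and 74 ± 18 (SD, n = 3) in IgG, an estimate of 0.65 ± 0.58 (SE, 95% interval -0.55 to 1.85, edgeR adjusted p = 0.923). BIRC3 averaged 12.1 ± 0.798 (SD, n = 3) and 8.14 ± 0.923 (SD, n = 3), an estimate of 0.57 ± 1 (SE, edgeR adjusted p = 0.943). No gene of the 10 was separated downwards (12.3% of all features), or in either direction on CPM with library totals (3.58% of all features upwards, 11.6% downwards) or on TPM (0.341% upwards, 6.07% downwards).

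**Figure D5:**
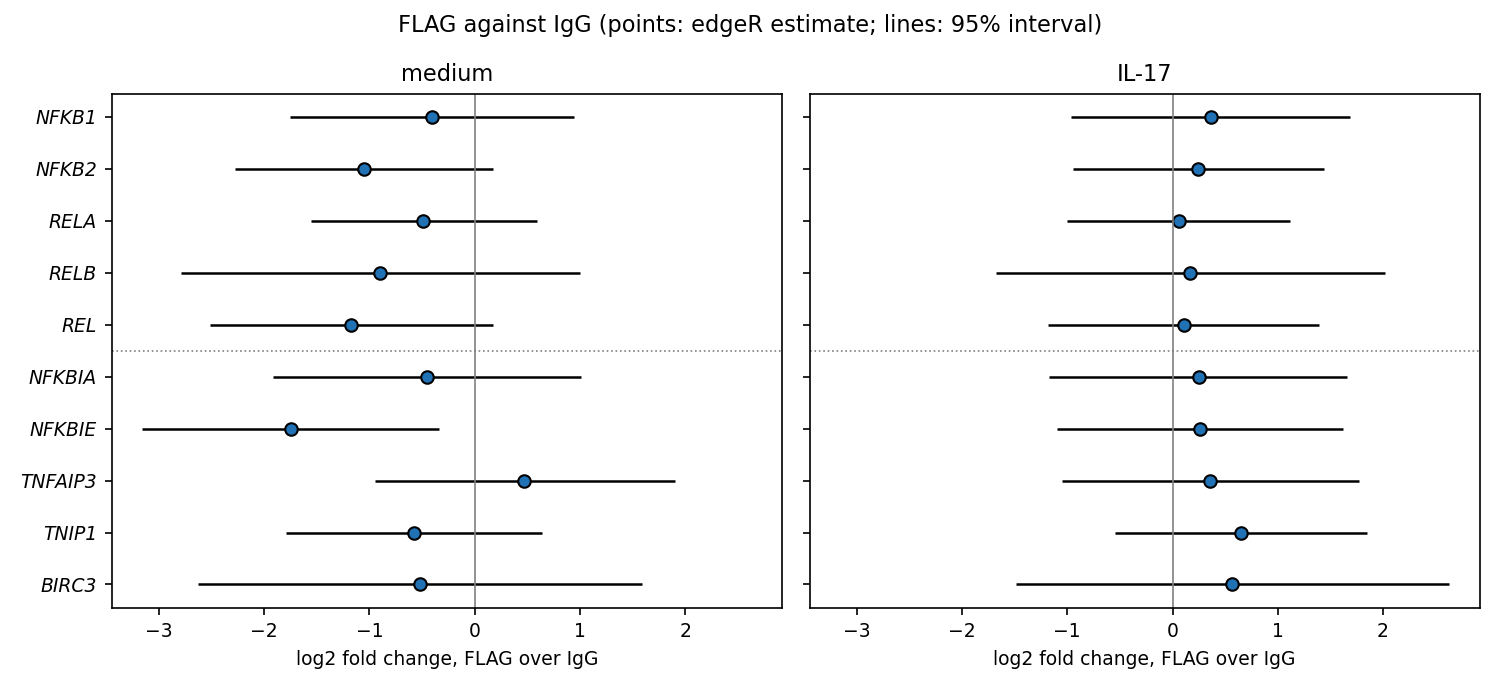
Log2 fold change of FLAG over IgG (horizontal axis) for the 10 genes (vertical axis; subunits above the dotted line, feedback genes below it) in medium (left) and with IL-17 (right); points are edgeR estimates and lines are 95% intervals. With IL-17 all 10 intervals include 0; in medium the interval excludes 0 only for NFKBIE, from -3.16 to -0.34.

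Whether IL-17 changed the recovery with FLAG relative to IgG was tested as the difference of both antibody effects, which uses the same 12 libraries. By edgeR 0 of the 10 genes passed, where 0% of all features did, with 1 gene at an unadjusted p under 0.05 (7.35% of all features) and 0 by DESeq2 and by limma. The gene was NFKBIE, with a change of 2.01 ± 0.95 on the log2 scale (SE, 95% interval 0.05 to 3.96). Its unadjusted edgeR p was 0.0445 and its edgeR adjusted p was 0.671. The FLAG levels of NFKBIE were 10.9 ± 2.45 scaled CPM (SD, n = 3) in medium and 10.9 ± 2.65 (SD, n = 3) with IL-17, so the change lay in the IgG libraries, which averaged 36.9 ± 26.1 (SD, n = 3) and 9.11 ± 3.57 (SD, n = 3). For NFKB2 the change was 1.3 ± 0.83 (SE), for REL 1.28 ± 0.90 and for TNIP1 1.23 ± 0.83, with edgeR adjusted p of 0.739, 0.766 and 0.756. The median change of the 10 genes was 1.08, against -0.52 for all features, and 9 of 10 were above 0, where 39.1% of all features were. The median of the 10 genes was 0.56 when IgG medium replicate 3 was left out and 0.65 when FLAG medium replicate 1 was, and ran from 0.56 to 1.19 over the 12 fits that left out a library. That of all features ran from -2.47 (without IgG medium replicate 2) to -0.25 (without FLAG medium replicate 1). On log2(TPM + 1) the median change of the 10 genes was 0.22. With all libraries TNFAIP3 was the exception, at -0.11 ± 0.97 (SE).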

How the data were processed

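A pair of deposited tables, covering 12 precipitates from HK2 cells, was used. The deposited estimated counts (60708 features with versioned Ensembl identifiers) are unscaled; 18% of those above 0 are not whole, and all were rounded for testing. The other deposited table is named for FPKM, but every column has the fixed sum that defines TPM, so it was read as TPM. The submitters' processing notes list R (4.2.0), DESeq2 (1.36.0), the RSEM release 1.3.1, STAR in version 2.7.9 and build GRCh38, also written hg38, with no roles; use of strand is not given. Estimated counts divide reads shared between features.

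Sample titles gave the groups. The main test was the edgeR (4.0.16, under R 4.3.3) quasi-likelihood test after filterByExpr with a minimum count of 10 and TMM scaling, in 1 model of all libraries, with Benjamini-Hochberg adjustment over 24040 features. Standard errors come from the log2 fold change and its F statistic. Alternatives were DESeq2 (1.42.0), limma (3.58.1) on log2 TPM with a pseudocount of 1 or 0.1, other scalings, no filter, a replicate block and left-out libraries. The procedure was tested on simulated data in which known changes were put into features that were not sparse. Of 100 features changed 4-fold it recovered 25% for the IL-17 effect in IgG, 24% in FLAG and 66% over both antibodies. For 16-fold changes it recovered 80%, 81% and 94%. Every member was named; the names come with the identifiers that define the set. The reference table paired 0 identifiers with symbols, so other pathway genes, cell type markers and the transfected gene are not analysed here. Members, lists and alternatives were chosen with earlier results of these data known. Gene positions and promoters come from RefSeq (GRCh38.p14), matched by symbol.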

Additional observations from a re-analysis of the deposited data

How the results depend on the processing

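No gene was called in any of the 6 comparisons in the 12 fits that left out a library, with RLE factors, library size only, no filter, the replicate block or limma with either pseudocount, or in 4 comparisons with only their own groups. DESeq2 called 1 gene, NFKBIE, in IgG with IL-17 and 1, again NFKBIE, over both antibodies (log2 -1.27, DESeq2 adjusted p = 0.0326). Of all 48364 features it called 369 and 813 in these comparisons. Without the 4 libraries that stood apart, the log2 value of NFKBIE in IgG with IL-17 was -2.57. The median of all 28872 features was 2.17 there. Over both antibodies NFKBIA was at 0.77 and NFKBIE at -1.38, against 0.8 for all features. In medium, FLAG over IgG was -2.19 for NFKBIE and -1.29 for NFKB2, against 1.6. The change of NFKBIE was 2.39, against -2.17. With all libraries these medians of all features were 0.18, -0.07, 0.2 and -0.52. Without the 4 libraries, all 4 of these comparisons rest on IgG medium replicate 3 for their IgG medium value. Over the other alternatives the adjusted p of NFKBIE in IgG with IL-17 ran from 0.0194, by DESeq2, to 1. That of NFKBIA over both antibodies reached 0.779. Over all features, calls for the IL-17 effect in FLAG, 54 by edgeR, ran from 2 (limma on log2(TPM + 0.1)) to 1236 (DESeq2), and those over both antibodies, 95, from 8 (the same limma setting) to 2268 (without the 4 libraries). With the replicate number as a block, calls over all features were 136 for the IL-17 effect in FLAG, 33 in IgG (3 without the block) and 187 over both antibodies. Whether the numbers mark a shared origin is not stated, and the deviations from group means gave a mixed answer: same-numbered libraries correlated at -0.14 to 0.468, above 0.1 in 9 of 18 pairs. All 6 pairs of replicate 3 were above 0.1, at 0.213 to 0.392, and a library was closest to its own number in 19 of 36 combinations. Not every pair was above 0.1, so the libraries were not treated as paired. Depth limits RELB and BIRC3 most, with a count of 0 in IgG medium replicate 1.

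Of the 60 log2 differences, none of them called, 31 changed sign under at least 1 alternative other than leaving out a single library (88 of 520 values). In 4 of the 88 an unadjusted p was under 0.05 on either side: NFKB2 and NFKBIA over both antibodies in both limma settings. The cause was not tested. With RLE factors, the log2 value for the IL-17 effect in FLAG was RELA -0.35. NFKB2 -0.13 and REL -0.21 were those for the effect over both antibodies. NFKB2 -0.03, RELA -0.23, RELB -0.03, REL -0.22 and NFKBIE -0.05 were those for FLAG over IgG with IL-17. With library size only, the log2 value for the IL-17 effect in IgG was NFKB1 -0.06. RELA -0.41 was that for the IL-17 effect in FLAG. NFKB2 -0.12 and REL -0.12 were those for the effect over both antibodies. NFKB2 -0.01, RELA -0.19, REL -0.22 and NFKBIE -0.07 were those for FLAG over IgG with IL-17. Without a filter, the log2 value for the IL-17 effect in IgG was RELB 0.06. With the replicate block, the log2 values for the IL-17 effect in IgG were RELB 0.29 and TNFAIP3 0.18. TNFAIP3 0.14 was that for the IL-17 effect in FLAG. TNFAIP3 0.16 was that for the effect over both antibodies. By DESeq2, the log2 value for the IL-17 effect in FLAG was RELA -0.34. NFKB2 -0.13 and REL -0.19 were those for the effect over both antibodies. NFKB2 -0.03, RELA -0.23, RELB -0.04, REL -0.22 and NFKBIE -0.05 were those for FLAG over IgG with IL-17. By limma on log2(TPM + 1), the log2 values for the IL-17 effect in IgG were NFKB1 -1.04 and NFKBIA -0.46. NFKB1 -0.15, NFKB2 -0.98, RELA -1.5, RELB -0.45, REL -0.11, NFKBIA -0.62 and TNIP1 -0.04 were those for the IL-17 effect in FLAG. NFKB1 -0.6, NFKB2 -1.15, RELB -0.41, REL -0.13, NFKBIA -0.54 and TNIP1 -0.57 were those for the effect over both antibodies. RELB 0.03 and NFKBIA 0.13 were those for FLAG over IgG in medium. NFKB1 -0.04, NFKB2 -0.16, RELA -0.17, RELB -0.04, REL -0.1 and NFKBIA -0.03 were those for FLAG over IgG with IL-17. RELB -0.07 and NFKBIA -0.17 were those for the change. By limma on log2(TPM + 0.1), the log2 values for the IL-17 effect in IgG were NFKB1 -1.03 and NFKBIA -0.55. NFKB2 -1.29, RELA -1.8, RELB -0.87, REL -0.35, NFKBIA -0.76 and TNIP1 -0.03 were those for the IL-17 effect in FLAG. NFKB1 -0.51, NFKB2 -1.47, RELB -0.49, REL -0.48, NFKBIA -0.66 and TNIP1 -0.64 were those for the effect over both antibodies. RELB 0.71 and NFKBIA 0.16 were those for FLAG over IgG in medium. NFKB1 -0.07, NFKB2 -0.21, RELA -0.22, RELB -0.05, REL -0.3, NFKBIA -0.05 and BIRC3 -0.01 were those for FLAG over IgG with IL-17. RELB -0.76 and NFKBIA -0.21 were those for the change. With only the groups compared, the log2 value for the IL-17 effect in IgG was RELB 0.07. RELA -0.01 was that for the IL-17 effect in FLAG. RELA -0.03 was that for FLAG over IgG with IL-17. Without the 4 libraries that stood apart, the log2 value for the IL-17 effect in IgG was NFKB1 -0.18. NFKB2 -0.03 and REL -0.02 were those for the effect over both antibodies. RELA -0.08, RELB -0.12 and NFKBIA -0.1 were those for FLAG over IgG with IL-17. Leaving out a single library changed the sign of 25 differences (68 of 720 values), none with an unadjusted p under 0.05 on either side; their ranges were, for the IL-17 effect in IgG, NFKB1 from -0.22 to 0.54, RELA from -0.69 to 0.05, RELB from -0.7 to 1.12, TNFAIP3 from -0.59 to 0.82 and TNIP1 from -0.32 to 0.08. They were, for the IL-17 effect in FLAG, RELA from -0.24 to 0.27 and TNFAIP3 from -0.85 to 0.09. They were, for the effect over both antibodies, NFKB2 from -0.12 to 0.36, REL from -0.15 to 0.32, RELA from -0.33 to 0.09 and TNFAIP3 from -0.53 to 0.28. They were, for FLAG over IgG in medium, BIRC3 from -1.21 to 0.14, NFKB1 from -1.18 to 0.12, NFKBIA from -0.97 to 0.14, RELB from -1.41 to 0.28 and TNFAIP3 from -0.06 to 1.44. They were, for FLAG over IgG with IL-17, NFKB2 from -0.11 to 0.32, NFKBIA from -0.13 to 0.33, NFKBIE from -0.2 to 0.35, REL from -0.17 to 0.2, RELA from -0.15 to 0.14, RELB from -0.24 to 0.71 and TNFAIP3 from -0.15 to 0.6. They were, for the change, RELB from -0.11 to 1.65 and TNFAIP3 from -1.09 to 0.41.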

Other observations

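The ratio of a gene's count to its TPM is proportional, within a library, to the effective transcript length that the deposited values imply. Set against the median of 2658 features with at least 20 counts and 0.2 TPM in every library, this relative length of TNFAIP3 was 0.607 to 0.986 in 6 IL-17 libraries and 0.249 to 0.469 in the 5 medium libraries with enough counts. For RELA it was 0.552 to 0.655 in IL-17 libraries and 0.294 to 0.54 in 5 medium libraries. In these genes the treatments did not overlap. Among 9482 features with a value in at least 4 libraries of each treatment, 2.01% had every IL-17 value above every medium value and 13.2% had every one below; of 8 members with enough values, these 2 were above and 0 below. REL was outside this count, since its TPM was under the limit in 4 IL-17 libraries; its remaining values were lower with IL-17, at 3.99 to 5.37 in 2 libraries against 6.29 to 7.67 in 5 medium libraries. NFKBIA, in contrast, ran from 0.587 to 0.699 with IL-17 and from 0.496 to 0.804 in 4 medium libraries. The pattern was noticed in the data and was not tested.

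Across the 12 libraries the log2 CPM of the 10 genes correlated unevenly, as a description that includes the effects of depth and content that libraries share. Of 45 pairs, 39 had a Pearson correlation above 0, with a median of 0.449. The share over all pairs of features was not computed, so this count has no background beside it. By Pearson correlation NFKBIA and TNIP1 were the most alike (Pearson 0.944, Spearman 0.678, n = 12), and NFKBIE and BIRC3 the least (Pearson -0.406, Spearman -0.315). NFKBIA and TNIP1 both had their lowest scaled CPM in FLAG medium replicate 1, at 1.39 and 10.8. By Spearman correlation the most alike were NFKB2 and REL (Spearman 0.937, Pearson 0.719), followed by NFKB1 and RELB (Spearman 0.881, Pearson 0.617). Among 12003 features with a mean of at least 5 CPM, the features most like NFKBIA by Pearson correlation were ENSG00000148248.14 (Pearson 0.986, Spearman 0.958) and ENSG00000173120.15 (Pearson 0.984, Spearman 0.916). Those most like TNFAIP3 were ENSG00000117523.17 (Pearson 0.969, Spearman 0.993) and ENSG00000108344.15 (Pearson 0.956, Spearman 0.972). The files do not name these features.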
